A study of Mus musculus with 8 samples.

Results

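The 9 genes described here form the core of the route from the insulin and IGF1 receptors to the FoxO transcription factors: Insr, Igf1r, Irs1, Irs2, Akt1, Akt2, Foxo1, Foxo3 and Foxo4. They were chosen by name, from their known place in this route, though with earlier results of these data known. All 9 were found among the 22520 protein-coding genes of the table. mRNA-seq was performed on cells of the liver from 4 wild-type (WT) and 4 LRP1 endothelial knockout (LRP1 eKO) samples, to look for what changes in endothelial cells (ECs) when LRP1, a large endocytic receptor of the LDL receptor family, is lost. WT mice were LRP1 f/f; Cdh5-CreER-/- and LRP1 eKO mice were LRP1 f/f; Cdh5-CreER+/-, so both groups carried the floxed Lrp1 allele. The CreER recombinase, driven by the promoter of the endothelial gene Cdh5, was carried by LRP1 eKO mice alone, and its presence cannot be told apart from the loss of Lrp1. WT mice were littermate controls, all mice were of the C57BL/6 strain at postnatal day 14, and the cells were labelled liver microvesicular cells. The study's methods describe selection of such cells on beads with an antibody to the endothelial protein PECAM-1. Whether each library came from a separate animal is not stated, and p-values measure the spread between libraries, which may be technical.

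The values are a quantile-normalized signal in which every library has nearly the same distribution, with totals between 484445 and 485947. Neither their sequencing depth nor the unit of the values before this step is given, so that the 9 genes were not ranked by their levels. For Lrp1, the targeted gene, WT libraries had 65.5 ± 13.3 and LRP1 eKO libraries 4.41 ± 1.65 (SD, n = 4), with no overlap. WT replicate 4 was the library farthest from its group's median for 61.7% of genes, and LRP1 eKO replicate 2 for 37.2%.

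Insulin and IGF1 bind receptor tyrosine kinases at the cell surface, which phosphorylate the adaptor proteins Irs1 and Irs2. These recruit PI3-kinase, whose lipid product brings Akt to the membrane, where it is activated. Akt then phosphorylates FoxO factors, which leave the nucleus and stop transcribing their targets, many of which serve fasting metabolism, growth arrest and stress resistance. In endothelium this route is known for nitric oxide production and vessel growth. These libraries measure mRNA, and phosphorylation or location of the proteins was not measured.

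Akt recognises the consensus Arg-x-Arg-x-x-Ser/Thr. Foxo1, Foxo3 and Foxo4 are shown with the coding sequence of this consensus because it is where the kinase of this route meets its transcription factors. A search of the GENCODE M21 coding sequences on GRCm38 found exactly 3 matches in each. The other members held matches as well, 7 in Irs1, 5 in Irs2 and 2 each in Insr, Igf1r, Akt1 and Akt2, which are not shown. A match is thus not particular to the FoxO genes. Capitals mark the codons from the first arginine to the serine or threonine, and lower case the flanking codons, all within coding exons.
Foxo1, match 1: ctgcccCGGCAGCGCTCCTGTACCtggccg
Foxo3, match 1: cagagtCGGCCACGCTCCTGTACGtggccc
Foxo4, match 1: cagagcCGTCCGCGATCCTGCACCtggccc
Foxo1, match 2: tcacccCGGAGAAGAGCTGCGTCCatggac
Foxo3, match 2: gcccccCGGCGGCGTGCGGTCTCCatggac
Foxo4, match 2: gcacccCGCCGCAGGGCTGCCTCCatggat
Foxo1, match 3: acatttCGTCCTCGAACCAGCTCAaatgct
Foxo3, match 3: gacttcCGCTCGCGCACCAATTCCaacgcc
Foxo4, match 3: actttcCGTCCACGAAGCAGTTCAaatgct

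The Foxo1 matches end at codons 24, 253 and 316, and lie at chr3:52268850-52268879 in exon 1 and at chr3:52345153-52345182 and chr3:52345342-52345371 in exon 2, on the plus strand. In Foxo3 they end at codons 32, 252 and 314, at chr10:42275332-42275361 in exon 2 and at chr10:42197758-42197787 and chr10:42197572-42197601 in exon 3, on the minus strand. The Foxo4 matches end at codons 32, 197 and 262, at chrX:101254893-101254922 in exon 1 and at chrX:101258291-101258320 and chrX:101258486-101258515 in exon 2, on the plus strand. A sequence match is a description and not a measured phosphorylation.

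FoxO factors can also bind promoters of genes upstream of them, and the promoters were searched for GTAAACA and CAAAACA on both strands. RefSeq promoters on GRCm38.p6, from 250 bases before to 50 bases after a start site, were given for 7 of the 9 genes in 11 windows, and Insr and Foxo4 had no entry. A match was found in 3 of the 11 windows, those of Akt1, Irs1 and Irs2. Of 32851 promoters, 3.65% held GTAAACA, 6.28% held CAAAACA and 9.63% held either. Capitals mark the match, which in each case is the reverse complement of the motif, read along the gene's own strand.
Akt1, GTAAACA: atctaccctctTGTTTACactcctggtga
Irs2, CAAAACA: gagtcacgtgtTGTTTTGctcttagttca
Irs1, CAAAACA, first: gctccgtcacgTGTTTTGctcctctggag
Irs1, CAAAACA, second: cagccgccgctTGTTTTGgttggggctct

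All of these lie on the minus strand of the genome, at chr12:112675028-112675056 for Akt1, chr8:11008949-11008977 for Irs2, and chr1:82291533-82291561 and chr1:82291454-82291482 for Irs1. No binding was measured, and no match says only that these letters are not in the window.

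The labelled cell type was examined through its markers. Pecam1 and Cdh5, which define endothelium, gave WT libraries signals of 2.09 ± 0.416 and 1.86 ± 0.430, and LRP1 eKO libraries 3.02 ± 0.911 and 3.70 ± 1.34 (SD, n = 4). The endothelial nitric oxide synthase gene Nos3, an Akt substrate, was below the filter for testing, with WT libraries at 0.163 ± 0.0501 and LRP1 eKO libraries at 0.128 ± 0.0449 (SD, n = 4). Of the 10 pan-endothelial markers, Esam and Eng stood at 14.98 ± 1.03 and 12.4 ± 1.205 for WT and 17.8 ± 0.973 and 24.3 ± 3.86 for LRP1 eKO libraries (SD, n = 4). Genes of other cells were detected beside them, and as scaling by gene length is not stated, levels of these genes cannot be set against each other. The smooth muscle marker with the highest mean over all 8 libraries, Acta2, stood at 811 ± 37.3 for WT and 1066 ± 32.1 for LRP1 eKO libraries, and the fibroblast marker chosen in the same way, Dcn, at 563 ± 12.5 and 457 ± 20.0 (SD, n = 4).

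Several marker lists moved with genotype, as the plot of summed marker signals shows. The sum of 10 pan-endothelial markers lay between 49.1 and 51.7 for WT and between 58.1 and 81.8 for LRP1 eKO libraries, and 3 of the 8 tested were higher at the threshold. Eng, a TGF-beta co-receptor, had the highest mean of the list over all 8 libraries. All 5 smooth muscle markers were higher, with sums of 1455 to 1517 for WT and 1801 to 1882 for LRP1 eKO libraries. All 6 tested hepatocyte markers of 10 were lower, with sums of 91.3 to 134 and 34.1 to 44.2. The 4 tested skeletal muscle markers, of 9 in the table, were also lower, with sums of 33.8 to 57.8 and 6.23 to 7.74. Stellate cell and fibroblast markers summed to 1345 to 1468 and 1178 to 1427, with 1 of 8 tested higher and 3 lower. Beside these counts, 19.0% of all genes tested were higher and 22.2% were lower.

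Sums of the remaining lists overlapped between genotypes, as did those of the stellate cell and fibroblast list, or were close to 0. Sinusoidal endothelial markers summed to 76.8 to 86.2 for WT and 66.6 to 91.5 for LRP1 eKO libraries, with 1 of 6 tested higher and 1 lower. Most of this sum was Maf, of the highest mean over all libraries and lower at 43.9 ± 3.52 and 30.8 ± 1.72, and Gata4, at 29.6 ± 0.976 and 29.4 ± 1.38 (SD, n = 4). Oit3 was higher, at 0.613 ± 0.127 and 2.54 ± 0.751 (SD, n = 4). Stab1, Fcgr2b and Lyve1 had higher LRP1 eKO means but did not pass (limma adjusted p = 0.0503, 0.0512 and 0.58). The untested Stab2, Clec4g, Mrc1 and Dnase1l3 also had higher LRP1 eKO means. Macrophage markers ranged from 102 to 198 for WT and from 48.8 to 595 for LRP1 eKO libraries, with LRP1 eKO replicate 2 the lowest and 1 of 7 tested higher, and Lyz2, of the highest mean over all libraries, had 114 ± 30.7 and 233 ± 154 (SD, n = 4). Erythroid markers summed to 24.6 to 57.9 and 14.6 to 24.7, and the only one tested, Alas2, was lower at 26.6 ± 1.88 and 20.3 ± 4.62 (SD, n = 4). The lymphocyte sum was at most 0.143, with Cd3g listed at 0 in every library and Cd79a at 0.0608 ± 0.0264 and 0.0557 ± 0.0115 (SD, n = 4). In such bulk samples, fewer cells of a type and less RNA per cell cannot be told apart, and the part of these marker changes in the results that follow was not tested.

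**Figure D1:**
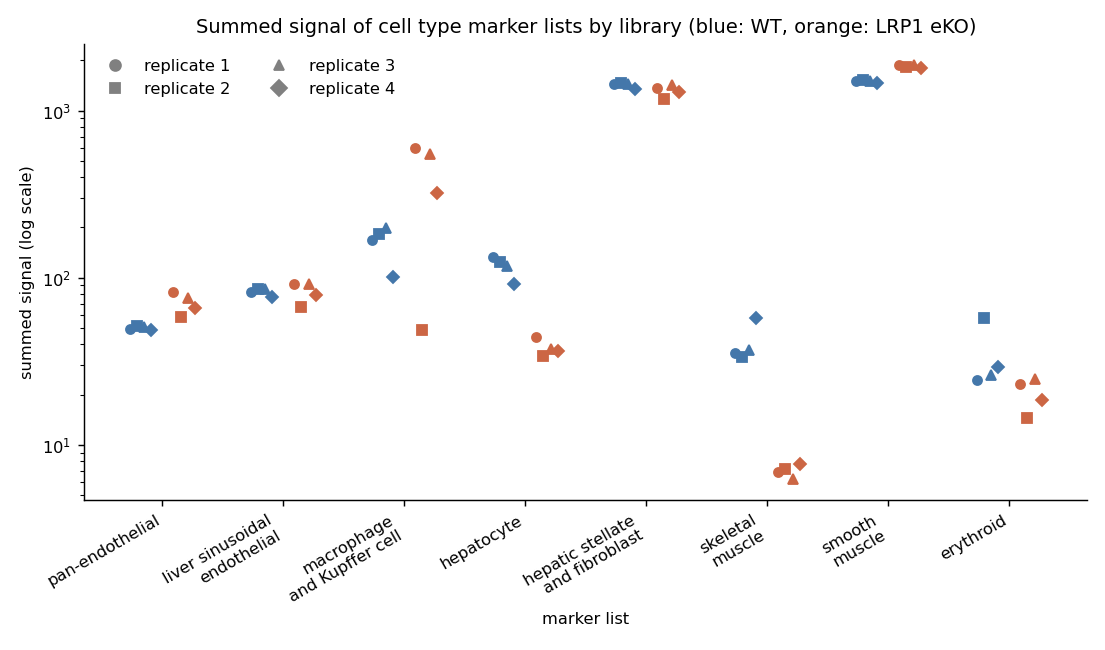
Summed normalized signal of 8 cell type marker lists in every library, on a log axis and without the lymphocyte list, which was close to 0, with blue points for the 4 WT and orange points for the 4 LRP1 eKO libraries. Hepatocyte and skeletal muscle sums lie lower and smooth muscle sums higher in LRP1 eKO libraries without overlap, and macrophage sums spread from 48.8 to 595 among LRP1 eKO libraries.

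Igf1r and Akt1 were higher in LRP1 eKO than WT libraries, Akt2, Foxo1 and Foxo4 were lower, and Insr, Irs1, Irs2 and Foxo3 did not pass the test. A gene passed at an adjusted p below 0.05 with limma on log2(signal + 1), over the 11391 genes that reached a signal of 1 in 4 or more of the 8 libraries, and all 9 genes met that filter. By this rule 5 of the 9 passed, beside 41.2% of all genes tested; 2 were higher, beside 19.0%, and 3 were lower, beside 22.2%. The 5 that passed were also the 5 without overlap between genotypes, beside 42.6% of genes tested, of which 20.0% were higher and 22.5% lower. None of the 9 reached a 2-fold change as well, beside 1.66% of genes. Passing the test was thus common in this table, and the shares among 9 genes differ from the background by few genes. Fold changes on the log2(signal + 1) scale understate the change of genes with low signal.

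**Figure D2:**
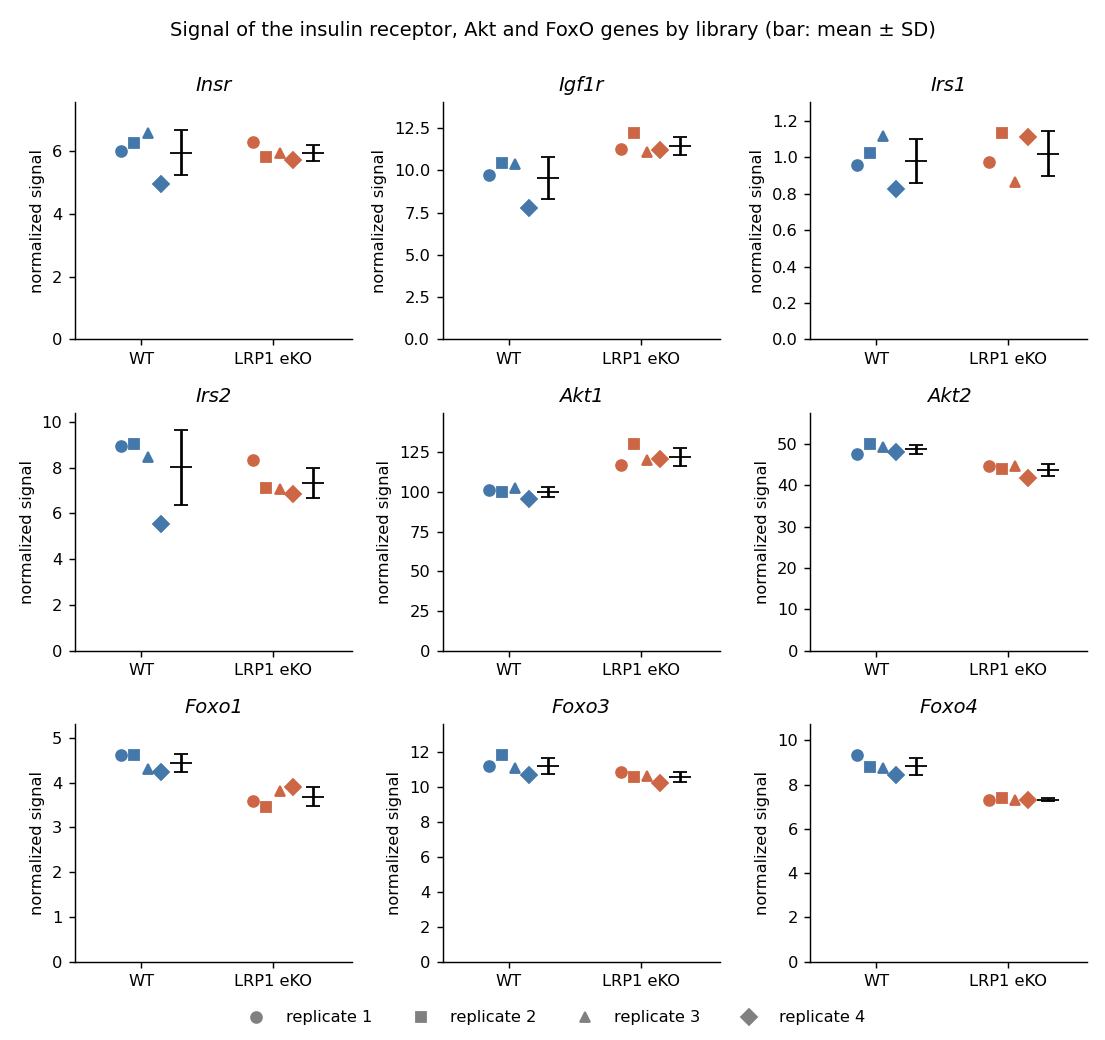
Normalized signal of each of the 9 genes in every library, with 1 marker shape per replicate number, blue for WT and orange for LRP1 eKO, and bars for the mean ± SD of 4 libraries. Signals of Igf1r and Akt1 lie higher and those of Akt2, Foxo1 and Foxo4 lower in LRP1 eKO libraries without overlap, and WT replicate 4 is the lowest WT library for 8 of the 9 genes.

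Of the receptors, Igf1r was higher in LRP1 eKO libraries and Insr showed no difference that passed the test. Igf1r (ENSMUSG00000005533), on chromosome 7 from 67952827 to 68233668 on the plus strand of GRCm38, encodes the receptor for IGF1. Its signal was 9.73, 10.4, 10.4 and 7.78 in WT replicates 1 to 4 and 11.3, 12.2, 11.1 and 11.2 in LRP1 eKO replicates 1 to 4. The highest WT library stayed below the lowest LRP1 eKO library, and WT replicate 4 lay well below the other WT libraries. The means were 9.58 ± 1.24 and 11.4 ± 0.531 (SD, n = 4), with a log2 fold change of 0.24 (standard error 0.085, 95% interval 0.051 to 0.43, limma adjusted p = 0.045). An exact two-sided permutation test gave p = 0.029, the smallest that 4 libraries against 4 allow. This call was narrow. The log2 fold change fell to 0.15 (limma adjusted p = 0.034) without WT replicate 4, and the adjusted p rose above the threshold when WT replicate 1 or any 1 LRP1 eKO library was left out, up to 0.10 without LRP1 eKO replicate 2.

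Insr (ENSMUSG00000005534), on chromosome 8 from 3122061 to 3279617 on the minus strand, encodes the insulin receptor. Its signal was 6.01, 6.25, 6.58 and 4.94 in WT and 6.28, 5.81, 5.93 and 5.72 in LRP1 eKO replicates 1 to 4. The LRP1 eKO libraries fell inside the range of the WT libraries, whose lowest was WT replicate 4. Means were 5.95 ± 0.709 and 5.94 ± 0.247 (SD, n = 4), and the fold change had a 95% interval of 0.888 to 1.13 (log2 fold change 0.0033, standard error 0.078, limma adjusted p = 0.98). This interval does not show that the levels were equal, but it bounds the fold change within these values. The direction of this small difference turned when WT replicate 4 was left out, at -0.07 on the log2 scale.

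Ligands and a further receptor are given by their levels. Ins1, an insulin gene, was listed at 0 in every library, and the other insulin gene, Ins2, was at most 0.0977. Igf1 gave 3.00 ± 0.458 for WT and 6.65 ± 3.04 for LRP1 eKO libraries (SD, n = 4), with overlapping ranges, since LRP1 eKO replicate 2 had 2.64. Igf2 had 14.3 ± 1.56 and 8.26 ± 0.541 (SD, n = 4), without overlap. Gprc6a, a proposed receptor for the bone hormone osteocalcin, was at most 0.041.

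Neither adaptor gene of the Irs family passed the test. Irs2 (ENSMUSG00000038894), on chromosome 8 from 10984681 to 11008458 on the minus strand, encodes an adaptor of the insulin receptor that is itself a well known FoxO target. Its signal was 8.96, 9.03, 8.48 and 5.55 in WT and 8.31, 7.11, 7.07 and 6.84 in LRP1 eKO replicates 1 to 4. The first 3 WT libraries lay above every LRP1 eKO library and WT replicate 4 lay below them all. The means were 8.004 ± 1.66 and 7.33 ± 0.662 (SD, n = 4), with a log2 fold change of -0.09 (standard error 0.13, 95% interval -0.39 to 0.20, limma adjusted p = 0.59).

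One library decided that result. Without WT replicate 4, the log2 fold change of Irs2 was -0.24 and passed the test (limma adjusted p = 0.018). The hepatocyte and macrophage markers of that library summed to 91.3 and 102, each the lowest WT value, and its skeletal muscle markers to 57.8, the highest. Its sums of pan-endothelial, sinusoidal endothelial, smooth muscle, and stellate cell and fibroblast markers were also the lowest of WT. The part of these markers in the Irs2 signal was not tested.

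Irs1 (ENSMUSG00000055980), on chromosome 1 from 82233101 to 82291416 on the minus strand, encodes the other adaptor and was near the filter for low signal. It had 0.956, 1.02, 1.12 and 0.826 in WT and 0.972, 1.13, 0.866 and 1.11 in LRP1 eKO replicates 1 to 4. The ranges of the genotypes overlapped almost fully. Means were 0.980 ± 0.122 and 1.02 ± 0.126 (SD, n = 4), and the log2 fold change was 0.03 (standard error 0.074, 95% interval -0.14 to 0.19, limma adjusted p = 0.77). Of the 50-base stretches of Irs1 transcripts, 30.5% also occur in Gm9747, a gene annotated on the opposite strand. Whether counting used strand is not given in the sources used here, and the signal of Irs1 is uncertain to that extent.

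The Akt kinases moved in opposite directions. Akt1 (ENSMUSG00000001729), on chromosome 12 from 112653821 to 112674884 on the minus strand, encodes the isoform best known for growth and survival and for endothelial function. Its signal was 101, 100.2, 102 and 95.3 in WT and 117, 130.1, 120 and 120.5 in LRP1 eKO replicates 1 to 4. Every LRP1 eKO library lay above every WT library, with LRP1 eKO replicate 2 the highest. The means were 99.8 ± 3.06 and 122 ± 5.74 (SD, n = 4), a log2 fold change of 0.29 (standard error 0.046, 95% interval 0.18 to 0.39, limma adjusted p = 0.0010; exact two-sided permutation p = 0.029). Of all genes tested, 27.0% had a larger absolute log2 fold change than Akt1, the largest of the 9.

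Akt2 (ENSMUSG00000004056), on chromosome 7 from 27591552 to 27640826 on the plus strand, encodes the isoform best known for insulin-stimulated glucose uptake. It had 47.6, 49.99, 49.2 and 48.1 in WT and 44.8, 43.8, 44.6 and 41.8 in LRP1 eKO replicates 1 to 4. Here every LRP1 eKO library lay below every WT library, and WT replicate 4 was not the lowest of its group. Means were 48.7 ± 1.08 and 43.7 ± 1.39 (SD, n = 4), with a log2 fold change of -0.15 (standard error 0.041, 95% interval -0.24 to -0.061, limma adjusted p = 0.015; exact two-sided permutation p = 0.029). The pseudogene Akt2-ps holds 11.6% of the 50-base stretches of Akt2 transcripts, and reads from them could be split between the genes.

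The FoxO genes all had lower means in LRP1 eKO libraries, and Foxo1 and Foxo4 passed the test. Foxo1 (ENSMUSG00000044167), on chromosome 3 from 52268336 to 52353221 on the plus strand, encodes the FoxO factor with a leading role in endothelial quiescence and in liver glucose output. Its signal was 4.61, 4.61, 4.30 and 4.23 in WT and 3.58, 3.45, 3.82 and 3.89 in LRP1 eKO replicates 1 to 4. The genotypes did not overlap, and LRP1 eKO replicate 2 was the lowest. Means were 4.44 ± 0.204 and 3.69 ± 0.204 (SD, n = 4), 83.1% of WT, with a log2 fold change of -0.21 (standard error 0.058, 95% interval -0.34 to -0.085, limma adjusted p = 0.015; exact two-sided permutation p = 0.029). The antisense gene Gm20402 holds most of the 6.8% of Foxo1 stretches that occur elsewhere.

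Foxo4 (ENSMUSG00000042903), on chromosome X from 101254528 to 101260873 on the plus strand, encodes a FoxO factor related to Foxo1 in its DNA-binding domain. It had 9.34, 8.79, 8.75 and 8.44 in WT and 7.29, 7.42, 7.31 and 7.29 in LRP1 eKO replicates 1 to 4. The LRP1 eKO libraries lay close together and below every WT library. Means were 8.83 ± 0.373 and 7.33 ± 0.0623 (SD, n = 4), 83.0% of WT, with a log2 fold change of -0.24 (standard error 0.049, 95% interval -0.35 to -0.13, limma adjusted p = 0.0041; exact two-sided permutation p = 0.029).

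Foxo3 (ENSMUSG00000048756), on chromosome 10 from 42181841 to 42276755 on the minus strand, encodes a FoxO factor known for apoptosis and stress resistance. Its signal was 11.2, 11.8, 11.1 and 10.7 in WT and 10.9, 10.6, 10.6 and 10.2 in LRP1 eKO replicates 1 to 4. Only WT replicate 4 and LRP1 eKO replicate 1 crossed, by a small margin. Means were 11.2 ± 0.461 and 10.6 ± 0.267 (SD, n = 4), with a log2 fold change of -0.08 (standard error 0.049, 95% interval -0.19 to 0.032, limma adjusted p = 0.23; exact two-sided permutation p = 0.057).

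**Figure D3:**
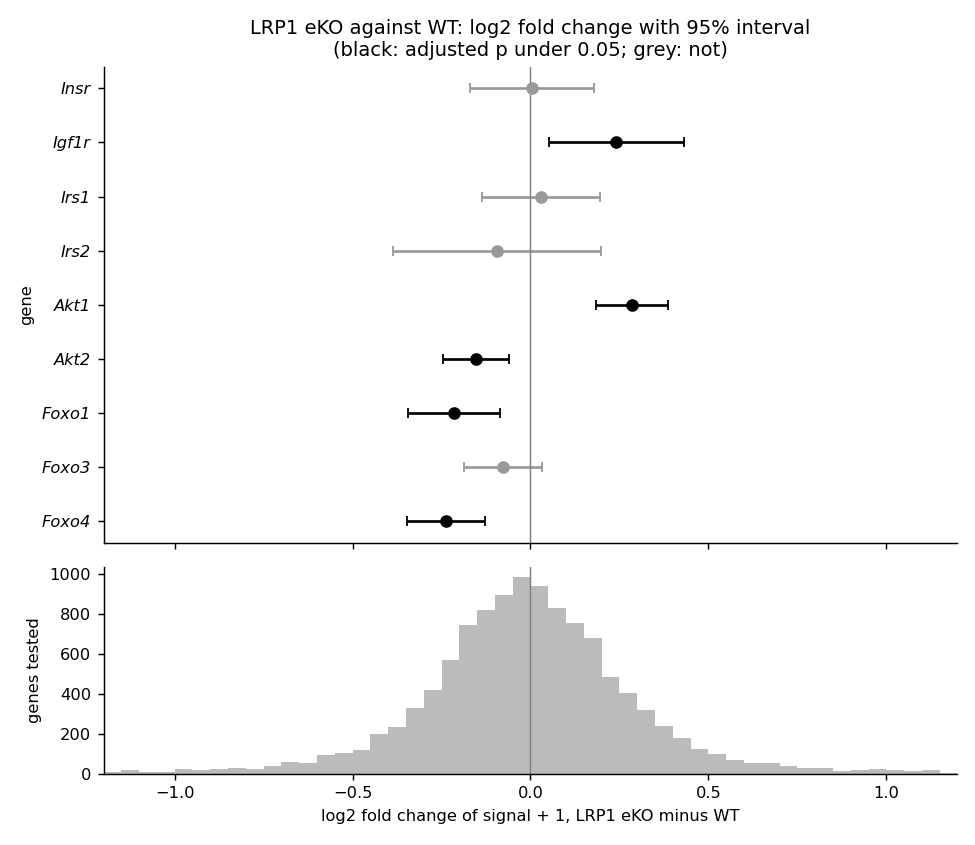
Upper panel, log2 fold change of each of the 9 genes with its 95% interval, in black where the adjusted p was below 0.05 and in grey otherwise. Lower panel, distribution of log2 fold changes of the 11391 genes tested, from -1.2 to 1.2, with 122 genes beyond these limits not drawn; the 9 genes lie within its central mass.

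Partners of 1 family were next compared within each library, as the difference between their log2(signal + 1) values. The log2 ratio of Akt1 over Akt2 went from 1.02 ± 0.0463 (WT) to 1.46 ± 0.0855 (LRP1 eKO; SD, n = 4), a rise of 0.44 or 1.35-fold in the ratio (exact two-sided permutation p = 0.029, adjusted over 6 pairs 0.043). Igf1r over Insr rose by 0.24, from 0.61 ± 0.0387 to 0.84 ± 0.0887 (SD, n = 4; exact permutation p = 0.029, adjusted 0.043), so that the 2 receptors moved unequally. These ratios did not overlap between genotypes. For Akt1 over Akt2 this was fixed in advance. Every LRP1 eKO library lay above every WT library for Akt1 and below every WT library for Akt2. The p of this ratio is therefore no support beyond the tests of the 2 genes.

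Among the FoxO genes, Foxo1 over Foxo3 fell by 0.14 on the log2 scale and Foxo3 over Foxo4 rose by 0.16, both without overlap (exact permutation p = 0.029, adjusted 0.043). With a pseudocount of 5 in place of 1, the change of Foxo1 over Foxo3 was -0.062, with overlap, and no longer passed (exact permutation p = 0.086, adjusted 0.13). The other 3 pairs that had passed kept their separation (exact permutation p = 0.029) but not their adjusted p (0.057 each). That adjusted p rose because fewer of the 6 pairs reached the smallest possible p. Foxo1 over Foxo4 differed by 0.02 with overlapping libraries (exact permutation p = 0.57, adjusted 0.57), and Irs1 over Irs2 by 0.12 with overlap (exact permutation p = 0.37, adjusted 0.45). A p that misses the threshold does not show that these partners moved alike.

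**Figure D4:**
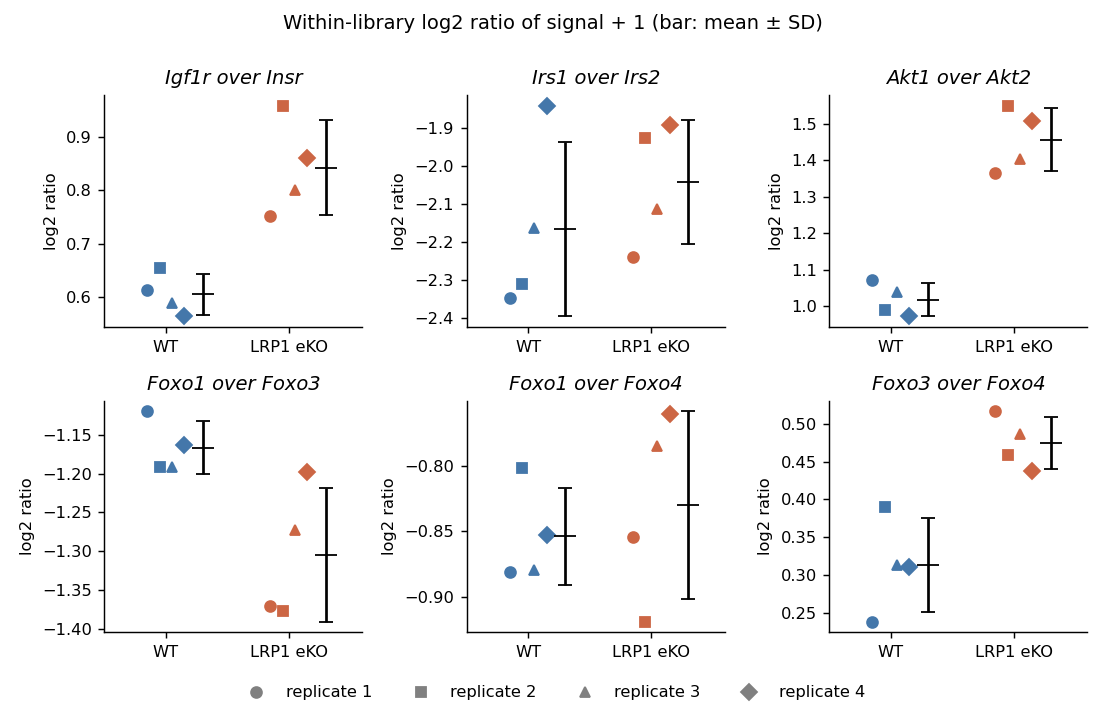
Log2 ratio of signal + 1 within each library for 6 pairs of genes, with blue points for WT, orange points for LRP1 eKO and bars for the mean ± SD of 4 libraries. Ratios of Akt1 over Akt2, Igf1r over Insr and Foxo3 over Foxo4 lie higher and those of Foxo1 over Foxo3 lower in LRP1 eKO libraries without overlap.

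The genes whose pattern was most like that of single members of the 9 were found by Pearson correlation of log2(signal + 1) over the 8 libraries among the genes tested, as a description without a test. All points share their libraries and their normalization, and the genotype difference enters each r. Stx17 was nearest to Insr (r = 0.98), Macf1 to Igf1r (r = 0.99), Wdr37 to Irs1 (r = 0.95) and Scap to Irs2 (r = 0.98). Cpeb1 was nearest to Akt1 (r = 0.997), Cand2 to Akt2 (r = 0.99), Tra2b to Foxo1 (r = 0.99) and E2f6 to Foxo4 (r = 0.995).

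The rest of the pathway was followed through 8 lists of 131 genes, ordered by role from the receptor to FoxO targets. Of these, 114 were tested, 30 were higher and 24 were lower, 47.4% in all beside 41.2% of all genes. Over all genes tested, 19.0% were higher and 22.2% were lower, and the counts of each list stand beside these shares. The median log2 fold change was 0.06 over the lists and -0.0095 over all genes tested. The 2-fold change was reached by 1 of the 114, Igfbp1.

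Receptors and their brakes were mixed, with 2 of 9 tested higher and 2 lower, 44.4% in all beside 41.2% of all genes. Their median log2 fold change was 0.08. Cav1, the caveolae scaffold that binds insulin receptors, rose from 273 ± 54.2 to 454 ± 53.6 (SD, n = 4; log2 fold change 0.75, limma adjusted p = 0.0029). Socs3, an inhibitor of cytokine and insulin receptor signalling, fell from 10.7 ± 0.776 to 7.19 ± 1.36 (-0.53, limma adjusted p = 0.0047), and the phosphatase gene Ptpn2 fell from 18.8 ± 1.51 to 15.5 ± 1.304 (-0.26, limma adjusted p = 0.018). The higher count was 1 without WT replicate 1, WT replicate 4, LRP1 eKO replicate 1 or LRP1 eKO replicate 3, and the lower count was 1 without LRP1 eKO replicate 1. Cav1 is also high in endothelium and smooth muscle, whose markers rose here, and their part was not tested.

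Of 11 tested adaptors, 3 were higher and 1 was lower, 36.4% in all beside 41.2% of all genes, with a median of 0.06. Shc1, an adaptor of growth factor receptors to Ras, fell from 132 ± 12.6 to 101 ± 5.08 (SD, n = 4; log2 fold change -0.37, limma adjusted p = 0.0026). Gab2, a docking protein for PI3-kinase, rose from 6.26 ± 0.377 to 7.81 ± 0.438 (0.28, limma adjusted p = 0.0054), and the adaptor gene Crk rose from 41.1 ± 3.42 to 47.2 ± 2.52 (0.20, limma adjusted p = 0.036). The higher count was 1 without LRP1 eKO replicate 3 and the lower count 2 without WT replicate 4.

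Among 9 tested PI3-kinase subunits, 2 were higher and 1 was lower, 33.3% in all beside 41.2% of all genes, with a median of -0.01. The catalytic subunit gene Pik3cb rose from 6.78 ± 0.789 to 8.43 ± 0.489 (SD, n = 4; log2 fold change 0.28, limma adjusted p = 0.019) and Pik3c2a rose from 4.83 ± 0.736 to 6.07 ± 0.162 (0.29, limma adjusted p = 0.029). The regulatory subunit gene Pik3r2 fell from 23.9 ± 1.71 to 21.3 ± 0.505 (-0.16, limma adjusted p = 0.046). These counts were fragile: the higher count was 0 without LRP1 eKO replicate 1 and 1 without LRP1 eKO replicate 4, and the lower count was 0 without any single library other than WT replicate 3.

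Genes of the list of Akt activating kinases gave 3 higher and 2 lower of 8 tested, 62.5% in all beside 41.2% of all genes. Their median was 0.18. Rictor, the defining subunit of the mTORC2 complex that phosphorylates Akt, rose from 2.47 ± 0.392 to 3.64 ± 0.207 (SD, n = 4; log2 fold change 0.43, limma adjusted p = 0.0042). Prr5, another mTORC2 subunit, fell from 6.90 ± 0.263 to 5.69 ± 0.0587 (-0.24, limma adjusted p = 0.0043). The lower count was 1 when any library other than WT replicate 2 or LRP1 eKO replicate 2 was left out.

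Brakes of the route, among them lipid and protein phosphatases, were higher for 2 and lower for 3 of 15 tested. This was 33.3% in all beside 41.2% of all genes, with a median of -0.0016. All 3 tribbles genes, which encode pseudokinases that can bind Akt, passed the test in different directions. Trib2 fell from 5.87 ± 0.450 to 3.25 ± 0.227 (SD, n = 4; log2 fold change -0.69, limma adjusted p = 5.1e-05) and Trib1 from 14.3 ± 0.855 to 10.8 ± 0.867 (-0.38, limma adjusted p = 0.0016). Trib3 rose from 8.20 ± 0.988 to 12.6 ± 0.418 (0.57, limma adjusted p = 0.00037). The higher count was 1 when WT replicate 2, WT replicate 3 or LRP1 eKO replicate 1, 3 or 4 was left out.

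Akt substrates and mTORC1 genes were higher for 8 and lower for 2 of 16 tested, 62.5% in all beside 41.2% of all genes. Their median was 0.12. Mdm2, the ubiquitin ligase of p53, rose from 68.2 ± 7.67 to 122 ± 2.56 (SD, n = 4; log2 fold change 0.84, limma adjusted p = 2.6e-05). Eif4ebp1, a translation repressor under mTORC1, rose from 92.9 ± 2.89 to 122 ± 7.49 (0.38, limma adjusted p = 0.00036), and Bad, a pro-apoptotic Akt substrate, fell from 41.0 ± 3.05 to 33.6 ± 1.19 (-0.28, limma adjusted p = 0.0039). The higher count fell whichever library was left out, to between 4 and 7. It was 5 without WT replicate 1 or LRP1 eKO replicate 1 and 4 without WT replicate 3 or LRP1 eKO replicate 2.

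FoxO regulators, among them 14-3-3 genes and kinases, gave 4 higher and 3 lower of 21 tested. This was 33.3% in all beside 41.2% of all genes, with a median of 0.13. Skp2, a ubiquitin ligase subunit that can mark Foxo1 for degradation, fell from 3.43 ± 0.152 to 2.56 ± 0.0588 (SD, n = 4; log2 fold change -0.32, limma adjusted p = 0.0016). The 14-3-3 gene Ywhah rose from 183 ± 10.9 to 216 ± 2.05 (0.24, limma adjusted p = 0.0033), and Stk4, a Hippo kinase that can phosphorylate FoxO, rose from 11.996 ± 1.22 to 15.7 ± 0.876 (0.37, limma adjusted p = 0.0037).

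Of 25 known FoxO targets tested, 10 were lower and 6 higher, 64.0% in all beside 41.2% of all genes, of which 22.2% were lower and 19.0% higher. Their median log2 fold change was -0.03. Sesn1, a stress-induced inhibitor of mTORC1, fell from 28.3 ± 0.855 to 14.7 ± 1.19 (SD, n = 4; log2 fold change -0.90, limma adjusted p = 4.2e-06). Igfbp1, an IGF-binding protein, fell from 23.6 ± 5.12 to 7.80 ± 0.871 (-1.46, limma adjusted p = 4.6e-05). Trim63, a muscle ubiquitin ligase, fell from 39.6 ± 3.58 to 21.6 ± 2.19 (-0.85, limma adjusted p = 5.2e-05).

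Targets that rose included Klf4, a transcription factor gene, from 8.90 ± 0.297 to 16.4 ± 2.41 (0.80, limma adjusted p = 9.8e-05). Fbxo32, a muscle ubiquitin ligase gene like Trim63, rose from 2.78 ± 0.131 to 4.69 ± 0.457 (0.59, limma adjusted p = 0.00019). Both were chosen after their values were seen.

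Of the 10 targets that fell, Igfbp1 is a liver gene and Trim63 a muscle gene, while Fbxo32, also a muscle gene, rose. The others that fell, Sesn1 among them, were not sorted by tissue. The hepatocyte marker with the highest mean over all 8 libraries, Ahsg, fell from 41.1 ± 7.73 to 14.0 ± 1.66 (SD, n = 4), and the skeletal muscle marker chosen in the same way, Myl1, from 13.7 ± 4.27 to 1.90 ± 0.190 (SD, n = 4). Their part in the lower signals of FoxO targets was not tested.

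**Figure D5:**
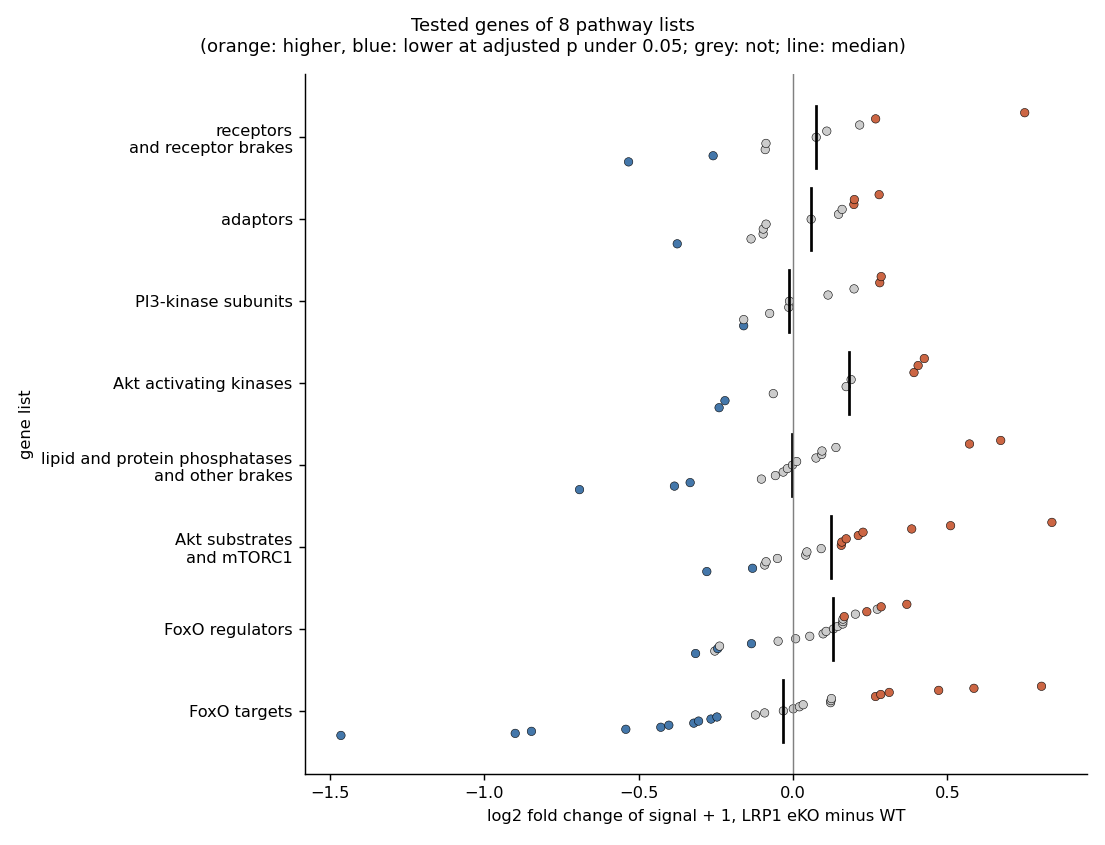
Log2 fold change of each tested gene in the 8 pathway lists, with orange points for genes higher and blue points for genes lower at an adjusted p below 0.05, grey points for the others and a line at each list's median. The medians lie between -0.03 and 0.18, and only Igfbp1 lies beyond a 2-fold change.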

How the data were processed

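The values deposited by the authors are a quantile-normalized signal of 22520 protein-coding genes in 8 libraries, all of which were used. The submitters' processing notes name mm10, TopHat2 and Cufflinks without their role. The paper's methods name trimGalore, STAR, featureCounts and edgeR but do not describe this table. The unit before normalization and the strand setting are not given in the sources used here. Quantile normalization forces the libraries to 1 distribution, which removes a global shift, and the depth and counting error are unknown.

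From this signal log2(signal + 1) was fitted in limma (version 3.58.1, R 4.3.3) using a mean-variance trend, genotype as the only term and Benjamini-Hochberg adjustment over 11391 genes. The deposited values were not counts, so no count test was used. Exact two-sided permutation tests cannot give a p below 0.029 with 4 libraries against 4. The calculation was tested on simulated data.

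The members and lists were chosen with earlier results of these data known. Named genes were the 9 members, Lrp1, insulin and Igf ligands, Gprc6a, the nearest gene of each member, up to 3 called genes with the smallest adjusted p per pathway list, and the highest marker per list. Results of some genes that this rule names are not reported here. Pecam1, Cdh5, Esam, Nos3, Klf4, Fbxo32 and the sinusoidal markers other than Maf were chosen after their values were seen. Other settings tried were a pseudocount of 0.1 or 5, testing without the filter, a mean signal of at least 5, no trend, robust moderation, array weights, trimmed mean centring with 30% removed from each end, a 2-fold threshold, a ratio of arithmetic means, the replicate number as a block and leaving out each library. Positions came from GENCODE M21 on GRCm38. Figures used matplotlib 3.10.9 in Python 3.11.15.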

Additional observations from a re-analysis of the deposited data

Results flagged for a closer look

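In 50 groups of 4 libraries, made of the signals of the 9 genes and Lrp1, the 9 marker sums and the 6 pair ratios in each genotype, 4 had a highest or lowest library whose gap to its nearest neighbour, divided by the range of the group, was above Dixon's 95% critical value. Chance alone gives about 2.5 of 50. For Irs2, WT replicate 4 was the low library, with a ratio of 0.842. For Foxo4, LRP1 eKO replicate 2 was the high library, with a ratio of 0.852 in a group whose values spanned only 7.29 to 7.42. The skeletal muscle marker sum of WT replicate 4 was high, with a ratio of 0.862, and the erythroid marker sum of WT replicate 2 was high, with a ratio of 0.865.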

How the results depend on the processing

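Akt1, Akt2, Foxo3 and Foxo4 kept their direction under all 19 alternatives that gave a value and their side of the threshold under the 18 that had a test, and Lrp1 stayed lower. Leaving out 1 library at a time gave log2 fold changes of 0.25 to 0.30 for Akt1, -0.16 to -0.13 for Akt2, -0.24 to -0.19 for Foxo1 and -0.26 to -0.21 for Foxo4. Over the same alternatives Igf1r lay between 0.15 and 0.28 (limma adjusted p 0.034 to 0.10), Irs2 between -0.24 and -0.035 (0.018 to 0.86), Insr between -0.070 and 0.047 and Irs1 between -0.0092 and 0.067. Igf1r did not pass without the filter on low signal (0.24, limma adjusted p = 0.077), where more genes were tested. With array weights the log2 fold change was -0.051 for Insr and -0.027 for Irs1, both reversed, and -0.23 for Irs2, which passed (limma adjusted p = 0.026). Centring on a trimmed mean turned Insr to -8.9e-05. The causes were not tested. Without WT replicate 4 and LRP1 eKO replicate 2 together, an alternative chosen after seeing the data, Igf1r was 0.12 (limma adjusted p = 0.058), Irs2 -0.23 (0.031), Insr -0.061 and Irs1 -0.036.

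Of the 9 genes, 2 were higher, against 1 without the filter, 1 without both of those libraries and 1 to 2 when 1 library was left out; 3 to 4 were lower then. A 2-fold threshold left 0 higher and 0 lower of the 9, 0 and 1 of the pathway genes, and 99 and 90 of all genes, against 2164 and 2526. Leaving out 1 library gave 21 to 30 higher and 19 to 25 lower pathway genes, and 1715 to 2206 higher and 2025 to 2604 lower of all genes. With a pseudocount of 5 the log2 ratios were 0.18 for Igf1r over Insr, 0.42 for Akt1 over Akt2 and 0.11 for Foxo3 over Foxo4 (exact permutation p = 0.029 and, adjusted over 6 pairs, 0.057 each) and -0.062 for Foxo1 over Foxo3 (exact permutation p = 0.086, adjusted 0.13). With 1 library left out these exact permutation tests cannot go below p = 0.057.

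The samples share only a replicate number: deviations of same-numbered WT and LRP1 eKO libraries correlated between -0.13 and 0.18, and none correlated best with its own number. With the replicate number as a block, 1975 genes were higher and 2210 lower, and Foxo1, at -0.21, no longer passed (limma adjusted p = 0.052). The unknown depth limits low genes such as Irs1.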
